A study of Mus musculus with 36 samples.

Results

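The genes described are 35 genes of the basement membrane and its neighbouring matrix, followed through germ cells and supporting cells of the fetal mouse gonad. They were taken from a list of 35 gene symbols, and each was found in the deposited table as the probe set with 1 annotated symbol and the highest mean, 35 of 19938 genes in all. The list holds 10 laminin chains, 6 type IV collagen chains, 6 linker and proteoglycan genes, 4 associated glycoproteins, 5 interstitial or other collagens and 4 receptors. Expression was measured on Affymetrix Mouse Gene 1.0 ST arrays of RNA from cells sorted by flow cytometry on each of 3 days of gestation (11.5 days post coitum, dpc, then 12.5 dpc and 13.5 dpc), the days on which the gonad becomes a testis or an ovary. The 12 groups are the combinations of cell type, karyotype and stage, each with 3 arrays except XX germ cells at 12.5 dpc, which had 2.

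All cells came from pooled gonads of 1 sex that were dissociated with trypsin and stained with DAPI before sorting. Germ cells of both sexes and all stages carried an Oct4 reporter and were progeny of C57BL/6NJ on a mixed background. XX supporting cells of all stages and XY supporting cells of 11.5 dpc carried the Sry-EGFP transgene Tg(Sry-EGFP)92Ei and were progeny of CD-1, so the label follows the promoter of the testis-determining gene. XY supporting cells of 12.5 and 13.5 dpc carried Tg(Sox9-cre/ERT2)1Msan/J and were progeny of C57BL/6, so here it follows the promoter of a Sertoli cell gene. The sex of the supporting cells at 12.5 and 13.5 dpc therefore cannot be told apart from the reporter line and strain, and neither can cell type from line. The comparison of XY with XX supporting cells at 11.5 dpc, the steps between stages in XX cells and the step from 12.5 to 13.5 dpc in XY cells lie inside a single line.

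A basement membrane is a thin sheet of matrix under epithelia, built from a laminin network and a type IV collagen network that nidogens and heparan sulfate proteoglycans join. Laminins are trimers of an alpha, a beta and a gamma chain, and integrins and dystroglycan hold them at the cell surface. In the fetal testis Sertoli cells, the XY supporting cells, gather around germ cells into cords that lie on a basement membrane shared with peritubular cells, while ovarian supporting cells and germ cells form looser cords.

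Values are log2 expression, on which 1 unit is a 2-fold difference, and levels are compared between arrays but not between genes. Array medians lay between 6.54 and 7.01, and the median of 8 germ cell markers was 9.75 to 10.83 in the 17 germ cell arrays used and 6.03 to 7.12 in the 18 supporting cell arrays. The median of 9 supporting cell markers was 8.24 to 10.17 in supporting cells and at most 7.22 in germ cells. At 11.5 dpc the sexes were apart, at 8.24 to 8.86 in XY and 9.60 to 9.80 in XX supporting cells over these markers. Among them the Sertoli hormone gene Amh reached 9.66 or more only in XY supporting cells of 12.5 and 13.5 dpc. The granulosa factor gene Foxl2, a defining marker of the later XX lineage, had group means of 5.97 to 6.61 in all 12 groups. It thus varied little between groups on its 1 probe set, and a low level of the gene cannot be read from that. The third array labelled XX germ cells at 12.5 dpc was left out: its germ cell median was 5.95 and its stromal marker median 9.74, against at most 7.002 in the arrays used. The rows of the deposited table fell into 107 sets that each run on a slightly different linear scale from array to array. Aligning these row sets to one scale let more members pass, and aligned values are given for some genes only. A gene said not to pass may therefore pass with row sets aligned. Differences come with the standard error (SE) of a single limma model over the 35 arrays and a p-value adjusted over the 19938 genes (Benjamini-Hochberg). A gene is said to differ, rise or fall where this adjusted p was under 0.05. Whether the arrays of a group stand for separate gonad pools is not given in the labels, so the tests see the spread among arrays alone, and that spread may be technical. In sorted bulk cells, fewer cells of a type and less RNA per cell cannot be told apart.

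Fibronectin and nidogen-2 were far higher in germ cells, and integrin alpha 6 far higher in supporting cells. Averaged over the 6 pairs of groups matched for sex and stage, 21 of the 35 genes differed, 3 higher and 18 lower in germ cells, where 47.2% of all genes differed (29.1% higher and 18.1% lower). Alignment of the row sets raised the count to 26, against 60.1% of all genes. The median difference over the 35 genes was -0.19, against 0.07 over all genes. The third gene higher in germ cells was that of fibulin-1, and many of the 18 lower ones differed moderately, with overlapping arrays.

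**Figure D1:**
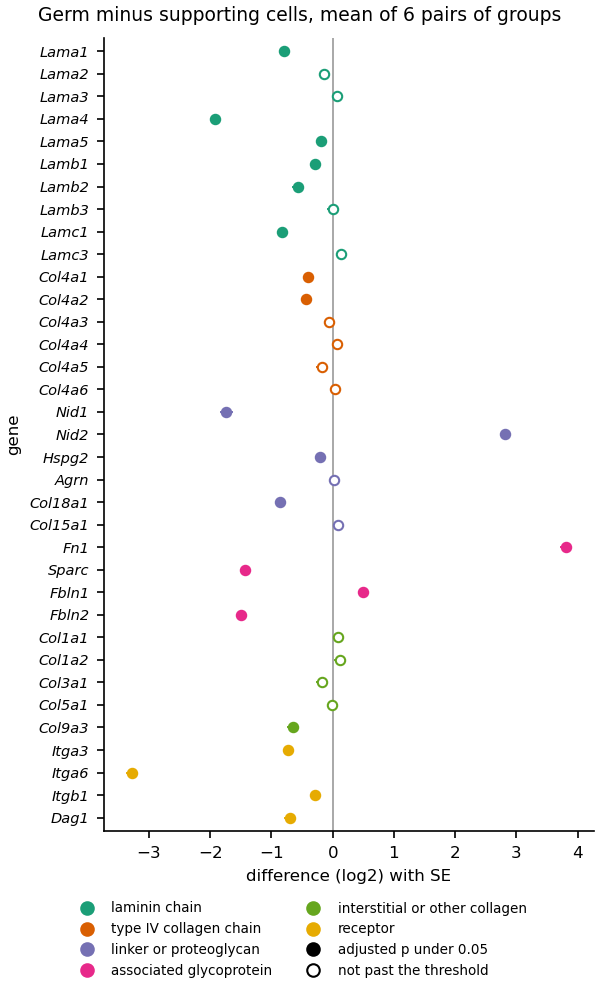
Difference in log2 expression between germ and supporting cells for each of the 35 genes (points, mean of 6 pairs of groups, with SE as bars), coloured by role, with filled points for an adjusted p under 0.05. Fn1 and Nid2 lie far to the right at 3.81 and 2.82, Itga6 far to the left at -3.28, and the interstitial collagens Col1a1, Col1a2, Col3a1 and Col5a1 lie near 0.

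Among the associated glycoproteins, Fn1 encodes fibronectin, the ligand on which many migrating cells move. Its level in the 17 germ cell arrays was 9.48 at the lowest, 10.54 at the median and 11.16 at the highest, and in the 18 supporting cell arrays it was 6.07 at the lowest, 6.77 at the median and 7.59 at the highest. The cell types did not overlap, and the difference was 3.81 (SE 0.09, adjusted p = 1.26e-37). Fbln1, which encodes fibulin-1, a glycoprotein that binds fibronectin and laminin, was 6.80 at the lowest, 7.45 at the median and 8.49 at the highest in germ cells and 6.72 at the lowest, 7.12 at the median and 7.67 at the highest in supporting cells. Here the ranges overlapped over most of the supporting cell values, and the difference was 0.50 (SE 0.09, adjusted p = 1.86e-06). Sparc, a collagen-binding protein of the extracellular space, was 9.65 at the lowest, 11.36 at the median and 12.07 at the highest in germ cells and 11.66 at the lowest, 12.61 at the median and 13.67 at the highest in supporting cells. It was lower in germ cells by the averaged difference of -1.43 (SE 0.09, adjusted p = 1.64e-19), with a small overlap of the arrays. Fbln2, the gene of fibulin-2, was also lower on average (-1.49, SE 0.08), but this value mixes the sexes: in XX supporting cells it was 7.11 to 7.81, close to the germ cells at 6.75 to 7.65, and in XY supporting cells 9.05 to 10.58.

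The linker genes ran in opposite directions. The nidogens bridge laminin and type IV collagen. Nid2 was 9.27 at the lowest, 9.79 at the median and 10.54 at the highest in germ cells and 6.54 at the lowest, 7.01 at the median and 7.35 at the highest in supporting cells, a gap with no overlap and a difference of 2.82 (SE 0.08, adjusted p = 2.18e-33). Nid1 was the other way round, 5.62 at the lowest, 6.19 at the median and 7.21 at the highest in germ cells and 7.08 at the lowest, 8.09 at the median and 8.95 at the highest in supporting cells, with a difference of -1.74 (SE 0.10, adjusted p = 6.49e-21). Only the highest germ cell array, XX at 12.5 dpc, reached into the range of the supporting cells. Of the proteoglycans, Col18a1, whose protein carries endostatin at its end, was lower in germ cells (-0.86, SE 0.09), again through the XY supporting cells described below. Hspg2, the gene of perlecan, passed narrowly at -0.20 (SE 0.08, adjusted p = 0.0384), and the call was lost on leaving out any of 16 single arrays (-0.17 to -0.20). Agrn, the gene of agrin, at 0.03 and Col15a1, a relative of Col18a1, at 0.09 did not pass.

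**Figure D2:**
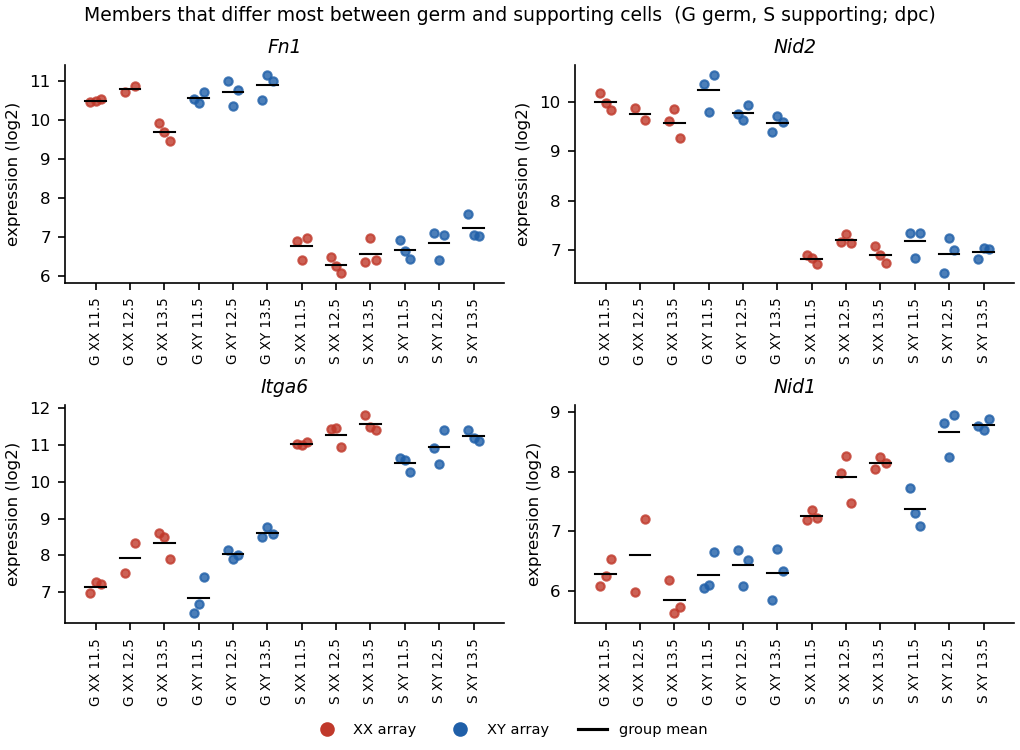
Log2 expression of Fn1, Nid2, Itga6 and Nid1 on each array (points, red for XX and blue for XY) with the group mean (line), for germ cells (G) and supporting cells (S) by stage in dpc. Fn1 and Nid2 are high in germ cells, Itga6 and Nid1 in supporting cells, and the Itga6 points of germ cells climb with stage.

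Of the 10 laminin chains 6 were lower in germ cells and none higher, where 18.1% of all genes were lower and 29.1% higher. Lamc1, the gamma chain that most laminins share, was 8.60 at the lowest, 9.05 at the median and 9.76 at the highest in germ cells and 9.43 at the lowest, 9.86 at the median and 10.82 at the highest in supporting cells, with a difference of -0.82 (SE 0.09, adjusted p = 1.01e-11). Lama1, the alpha chain of the early embryo's laminin, differed by -0.79 (SE 0.09), Lamb2 by -0.57 (SE 0.09) and Lamb1 by -0.29 (SE 0.08). These were moderate differences with overlapping arrays. Lama4 had the lowest average at -1.92 (SE 0.09), which rested on the XY supporting cells, since XX supporting cells at 5.85 to 6.96 overlapped the germ cells at 5.59 to 6.76. Lama5 passed narrowly (-0.19, SE 0.08, adjusted p = 0.0351), and its call was lost on leaving out any of 10 single arrays (-0.16 to -0.18). Lama5 differed by -0.32 with row sets aligned, and Lamb1 by -0.50 with quantile normalisation. Lama2, Lama3, Lamb3 and Lamc3 did not pass, with differences from -0.15 to 0.14, and of these Lama2 passed with row sets aligned (-0.20).

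In the type IV collagens the paired chains Col4a1 and Col4a2, which form the common network of all basement membranes, were lower in germ cells by small amounts. Col4a1 was 7.13 at the lowest, 7.61 at the median and 8.27 at the highest in germ cells and 7.62 at the lowest, 7.94 at the median and 8.84 at the highest in supporting cells, with a difference of -0.40 (SE 0.09, adjusted p = 0.000184). Col4a2 differed by -0.44 (SE 0.08). The tissue-restricted chains Col4a3, Col4a4, Col4a5 and Col4a6 did not pass. Col4a6 turned from 0.04 to -0.078 with row sets aligned and passed (adjusted p = 0.0289), and Col4a5 passed as well (-0.18 and -0.23 aligned).

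All 4 receptor genes were lower in germ cells, where 18.1% of all genes were lower. Itga6, the alpha chain of laminin-binding integrins, was 6.42 at the lowest, 7.91 at the median and 8.78 at the highest in germ cells and 10.26 at the lowest, 11.10 at the median and 11.80 at the highest in supporting cells. No germ cell array came near the supporting cells, and the difference was -3.28 (SE 0.09, adjusted p = 7.97e-34). Itga3, a second laminin-binding alpha chain, differed by -0.73 (SE 0.08), and Dag1, the gene of dystroglycan, by -0.70 (SE 0.09). Itgb1, the beta chain that pairs with both alpha chains, was 10.02 at the lowest, 10.50 at the median and 11.46 at the highest in germ cells and 10.50 at the lowest, 10.83 at the median and 11.23 at the highest in supporting cells, with a difference of -0.28 (SE 0.09, adjusted p = 0.00845). The arrays overlapped, and the difference was -0.50 with row sets aligned and -0.56 with quantile normalisation. Of the other collagens Col9a3 alone was lower (-0.65, SE 0.09), which rested on the XY supporting cells of 12.5 and 13.5 dpc. Its germ cell arrays lay at 7.87 to 8.67. XX supporting cells at 7.89 to 8.46 lay within this range, and XY supporting cells of 11.5 dpc at 8.19 to 8.70 overlapped it. The XY supporting cells of 12.5 and 13.5 dpc, from the Sox9 line, were at 9.21 to 10.58. Col1a1, Col1a2, Col3a1 and Col5a1, the fibril collagens of stroma, lay between -0.18 and 0.11 and did not pass. Col3a1 (-0.25) and Col5a1 (-0.14) passed as lower in germ cells with row sets aligned.

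In supporting cells Lama4, Fbln2, Col18a1 and Sparc were higher in XY than in XX cells at all 3 stages. At 11.5 dpc these 4 were the only members of the list that differed, 4 of 35 against 3.32% of all genes (1.62% higher and 1.71% lower), with a median difference of 0.01 over the list and -0.06 over all genes. At 12.5 dpc 10 of 35 were higher and none lower, against 13.4% of all genes (8.48% higher and 4.89% lower), with medians of 0.22 and 0.04. At 13.5 dpc 8 were higher and 1 lower, against 12.2% of all genes (7.21% higher and 5.02% lower), with medians of 0.17 and -0.02. With row sets aligned the counts were 7, 15 and 18, against 8.52%, 27.6% and 25.6% of all genes. Those added at 11.5 dpc were Lama1 (0.45), Lamc1 (0.41) and Nid2 (0.45), all higher in XY. Itga3 passed as higher in XY at 12.5 dpc (0.48) and 13.5 dpc (0.43) with row sets aligned only.

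**Figure D3:**
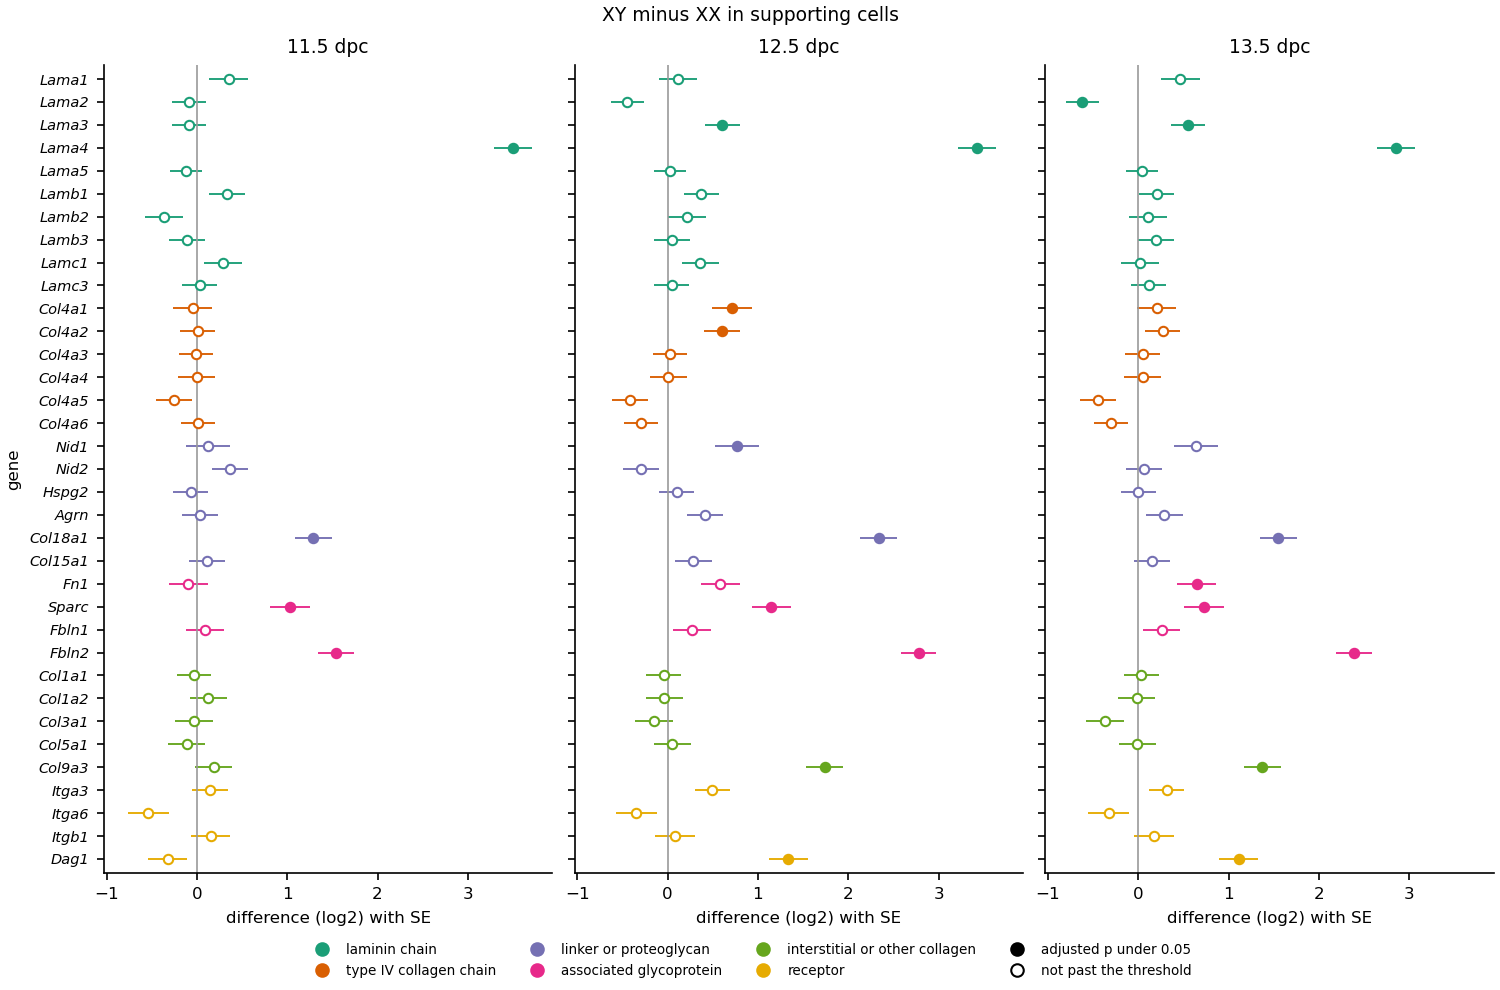
XY minus XX difference in log2 expression in supporting cells for each gene (points with SE bars), 1 panel per stage, coloured by role and filled for an adjusted p under 0.05. Lama4 is the highest at every stage (3.50, 3.42 and 2.86), Fbln2 and Col18a1 are past 1 throughout, and Col9a3 and Dag1 are near 0 or below it at 11.5 dpc and past 1 afterwards.

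Lama4 encodes the alpha 4 chain, a short laminin chain best known from vessel walls and mesenchyme. At 11.5 dpc the XX arrays read 6.17, 5.97 and 5.85 and the XY arrays 9.57, 9.63 and 9.29. At 12.5 dpc XX read 6.83, 6.44 and 6.96 and XY 10.63, 9.78 and 10.08, and at 13.5 dpc XX read 6.86, 6.71 and 6.42 and XY 9.51, 9.60 and 9.46. The sexes did not overlap at any stage, XX overlapped the germ cells, and the XY cells were already high at 11.5 dpc. The differences were 3.50 (SE 0.21, adjusted p = 1.94e-18), 3.42 (SE 0.21, adjusted p = 1.11e-18) and 2.86 (SE 0.21, adjusted p = 6.32e-16) in order of stage. The median of 10 endothelial markers was 6.11 to 6.25 in XY and 6.14 to 6.25 in XX arrays at 11.5 dpc, 6.12 to 6.70 and 6.30 to 6.42 at 12.5 dpc, and 6.00 to 6.14 and 6.03 to 6.19 at 13.5 dpc, and the part of such cells in the Lama4 values was not tested.

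Fbln2 behaved alike. It read 7.68, 7.66 and 7.67 in XX and 9.05, 9.40 and 9.19 in XY at 11.5 dpc, 7.81, 7.60 and 7.22 against 10.15, 10.58 and 10.24 at 12.5 dpc, and 7.11, 7.26 and 7.32 against 9.75, 9.35 and 9.75 at 13.5 dpc. Every XY array was above every XX array. The differences were 1.54 (SE 0.20, adjusted p = 1.41e-07), 2.78 (SE 0.20, adjusted p = 1.93e-16) and 2.39 (SE 0.20, adjusted p = 3.7e-14). Fbln1, the related fibulin gene, did not pass at any stage (0.09, 0.27 and 0.26). With row sets aligned it passed as higher in XY at 12.5 dpc (0.37) and 13.5 dpc (0.32).

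Col18a1 at 11.5 dpc read 7.56, 7.42 and 7.53 in XX and 8.45, 8.86 and 9.06 in XY cells. At 12.5 dpc it read 7.96, 7.66 and 7.61 in XX and 9.83, 10.12 and 10.27 in XY, and at 13.5 dpc 7.59, 7.75 and 7.53 and 9.12, 9.16 and 9.24. XX values stayed level while XY values peaked at 12.5 dpc. The differences were 1.29 (SE 0.20, adjusted p = 1.39e-05), 2.34 (SE 0.20, adjusted p = 2.36e-13) and 1.55 (SE 0.20, adjusted p = 4.09e-08). Within the XY cells of the Sox9 line Col18a1 fell from 12.5 to 13.5 dpc by the difference of -0.90 (SE 0.20, adjusted p = 0.013), the only member to change in that step, against 0.918% of all genes (0.14% higher and 0.777% lower). That step had a median of -0.17 over all genes, and the call was lost with arrays centred (-0.74), with quantile normalisation (-0.74) and without XY 12.5 dpc replicate 3 (-0.80), XY 13.5 dpc replicate 1 (-0.87) or replicate 2 (-0.90). Without XY 12.5 dpc replicate 2 the count of members was 4, and with row sets aligned 1 rose and 3 fell, against 1.62% of all genes.

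Sparc was high in both sexes and higher in XY. Its XX arrays read 11.83, 11.66 and 11.78 and its XY arrays 12.68, 12.83 and 12.85 at 11.5 dpc, a difference of 1.03 (SE 0.22, adjusted p = 0.00144). At 12.5 dpc XX read 12.25, 12.34 and 11.88 and XY 13.26, 12.99 and 13.67, a difference of 1.15 (SE 0.22, adjusted p = 6.62e-05). At 13.5 dpc XX read 12.53, 12.43 and 12.43 and XY 13.22, 13.32 and 13.04, a difference of 0.73 (SE 0.22, adjusted p = 0.017). The sexes never overlapped, but the gap at 13.5 dpc was the narrowest, and that call was lost without XX replicate 2 (0.71), XX replicate 3 (0.71), XY replicate 1 (0.72) or XY replicate 2 (0.66).

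**Figure D4:**
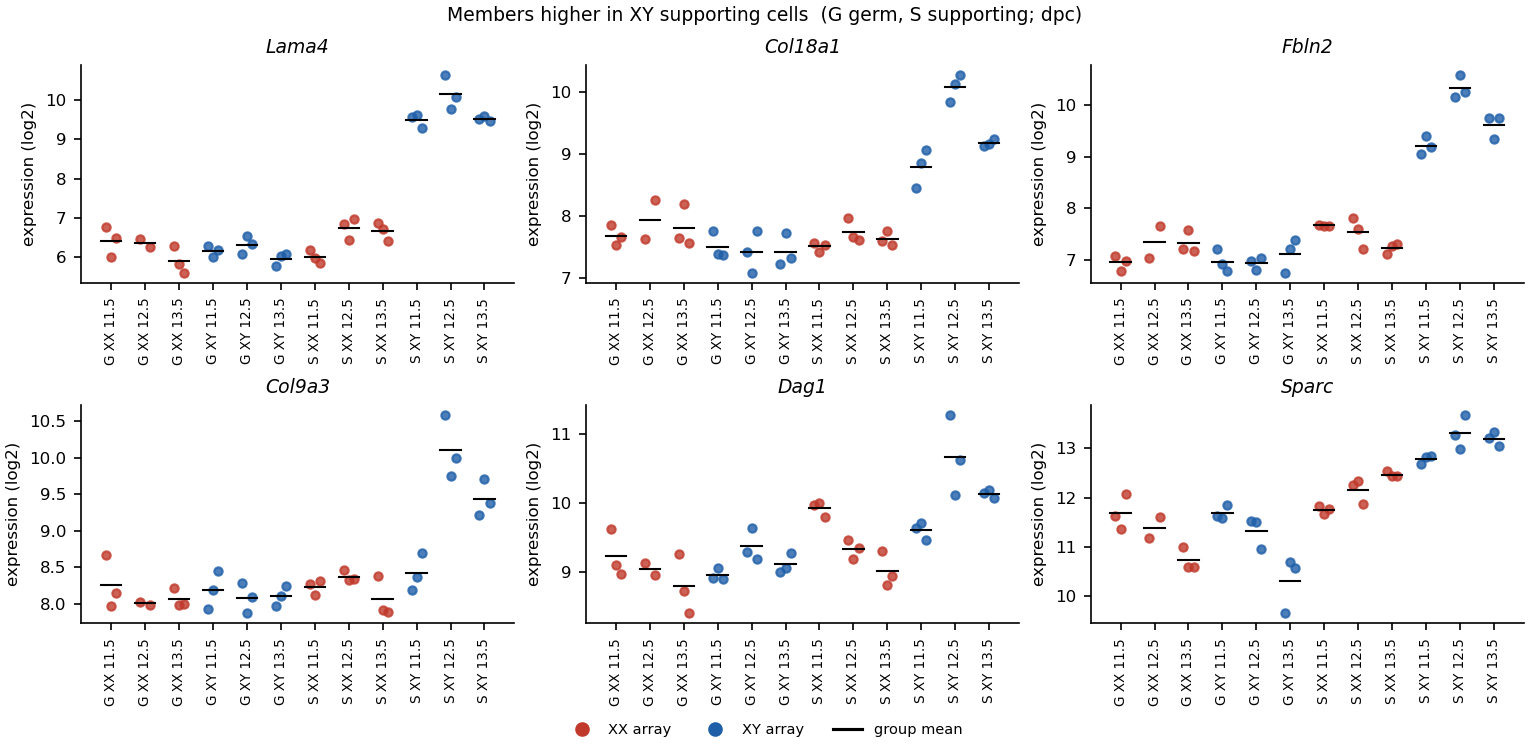
Log2 expression of Lama4, Col18a1, Fbln2, Col9a3, Dag1 and Sparc on each array (points, red for XX and blue for XY) with the group mean (line), for germ cells (G) and supporting cells (S) by stage in dpc. In the first 3 genes XY supporting cells stand above all other groups at every stage, while Col9a3 and Dag1 stand above only from 12.5 dpc.

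Col9a3 and Dag1 differed from 12.5 dpc on. Col9a3 encodes a chain of collagen IX, a fibril-associated collagen known from cartilage. It read 8.27, 8.11 and 8.31 in XX and 8.19, 8.36 and 8.70 in XY cells at 11.5 dpc, 8.46, 8.32 and 8.33 and 10.58, 9.75 and 10.00 at 12.5 dpc, and 8.38, 7.91 and 7.89 and 9.21, 9.71 and 9.38 at 13.5 dpc. The sexes overlapped at 11.5 dpc (0.18, SE 0.20) and were apart at 12.5 dpc (1.74, SE 0.20, adjusted p = 2.12e-09) and 13.5 dpc (1.37, SE 0.20, adjusted p = 7.03e-07). Dag1 read 9.98, 10.01 and 9.81 in XX and 9.64, 9.72 and 9.47 in XY at 11.5 dpc, 9.47, 9.20 and 9.36 and 11.28, 10.12 and 10.63 at 12.5 dpc, and 9.30, 8.82 and 8.95 and 10.14, 10.20 and 10.07 at 13.5 dpc. At the first stage the XX arrays were above the XY arrays without passing the test (-0.32, SE 0.22), and afterwards XY was above XX, by 1.34 (SE 0.22, adjusted p = 3.17e-06) and then 1.11 (SE 0.22, adjusted p = 9.39e-05). The change of the sex difference from 11.5 to 13.5 dpc, tested as an interaction, was 1.19 (SE 0.29, adjusted p = 0.0062) for Col9a3 and 1.44 (SE 0.30, adjusted p = 0.0012) for Dag1. These were the 2 members that passed this test, against 4.26% of all genes, and the change coincides with the change of reporter line in XY cells. With row sets aligned 8 members passed, 4 higher and 4 lower, against 11.7% of all genes.

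Smaller differences appeared at 1 or 2 of the later stages. The type IV pair was higher in XY cells at 12.5 dpc: Col4a1 read 8.39, 7.72 and 7.67 in XX and 8.29, 8.77 and 8.84 in XY (0.71, SE 0.22, adjusted p = 0.0179), and Col4a2 read 7.63, 7.70 and 7.27 and 8.21, 7.97 and 8.22 (0.60, SE 0.20, adjusted p = 0.0298). At 13.5 dpc neither passed (0.21 and 0.27), but both did with row sets aligned (0.32 and 0.34). In Col4a1 the XX replicate 1 of 12.5 dpc overlapped the XY arrays. Its call at 12.5 dpc was lost without XX replicate 2 or 3 or XY replicate 2 or 3 (0.59 to 0.64). That of Col4a2 was lost without XX replicate 3 (0.47), XY replicate 1 (0.56) or XY replicate 3 (0.56). Nid1 was higher in XY at 12.5 dpc (0.76, SE 0.24, adjusted p = 0.026), with 7.99, 8.26 and 7.48 in XX and 8.82, 8.26 and 8.95 in XY. XX replicate 2 lay beside the lowest XY array, and the call was lost without XX replicate 3 (0.55), XY replicate 1 (0.69) or XY replicate 3 (0.63). At 13.5 dpc Nid1 read 8.04, 8.25 and 8.14 and 8.77, 8.70 and 8.89, without overlap and without passing (0.64, SE 0.24, adjusted p = 0.0857). With row sets aligned it passed at that stage (0.53).

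The alpha chains other than Lama4 differed less between the sexes. Lama1 did not pass at 11.5 dpc (0.35) or 13.5 dpc (0.47), but with row sets aligned it passed at both as higher in XY (0.45 and 0.50). Lama3, known from epithelial basement membranes, was higher in XY at 12.5 dpc (0.61, SE 0.19, adjusted p = 0.0213) and 13.5 dpc (0.55, SE 0.19, adjusted p = 0.0451). It read 6.72, 6.28 and 6.22 in XX and 6.86, 7.13 and 7.07 in XY at the first and 6.52, 6.59 and 6.65 and 7.10, 6.94 and 7.38 at the second of these stages. The sexes did not overlap at either stage. The 12.5 dpc call was lost without XX replicate 2 (0.55) or 3 (0.52) or XY replicate 2 (0.55) or 3 (0.58). At 13.5 dpc it was lost without any of the XX replicates (0.52 to 0.58), XY replicate 1 (0.57) or XY replicate 3 (0.43). Lama2, the chain of muscle basement membranes, was the 1 member lower in XY, at 13.5 dpc (-0.62, SE 0.18, adjusted p = 0.0164), with 6.69, 6.65 and 6.88 in XX and 6.10, 6.02 and 6.25 in XY. The arrays were apart, and the call was lost without XX replicate 3 (-0.55), XY replicate 1 (-0.61) or XY replicate 2 (-0.57). Fn1 passed at 13.5 dpc (0.65, SE 0.22, adjusted p = 0.0373) with 6.36, 6.97 and 6.41 in XX and 7.59, 7.05 and 7.04 in XY, levels far below those of germ cells. That call was lost without XX replicate 1 (0.54), XX replicate 3 (0.56) or XY replicate 1 (0.46). Without XY replicate 1 or XX replicate 3 the count at 13.5 dpc was 5 of 35, and without XY replicate 3 the count at 12.5 dpc was 6.

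Markers of other cells moved with part of these results. At 11.5 dpc 0 of 5 erythroid markers differed by limma (2 at an unadjusted p under 0.05), 3 were higher in XY at 12.5 dpc and 1 at 13.5 dpc. Their median was 6.74 to 7.05 in XY and 6.84 to 7.08 in XX arrays at 11.5 dpc, 7.58 to 8.02 and 6.88 to 7.14 at 12.5 dpc, and 7.30 to 7.54 and 6.55 to 6.94 at 13.5 dpc. Of the 4 Leydig cell markers, steroid-making enzymes and Star, 1 was lower in XY at 11.5 dpc, 1 higher at 12.5 dpc and all 4 higher at 13.5 dpc. Their median was 5.98 to 6.07 in XY and 5.75 to 5.93 in XX at 11.5 dpc, 5.51 to 6.13 and 5.52 to 6.09 at 12.5 dpc, and 6.98 to 7.59 and 5.44 to 5.56 at 13.5 dpc. Erythroid medians were thus apart at the later stages and Leydig medians at the first and last. Of 8 stromal markers 1 was higher and 2 lower at 11.5 dpc, 2 and 2 at 12.5 dpc, and 1 and 0 at 13.5 dpc. Stromal medians overlapped at the first stages and were apart at 13.5 dpc, at 6.63 to 6.90 in XY and 6.35 to 6.53 in XX. Of 6 smooth muscle or peritubular markers 1, 2 and 1 were lower in XY by stage and none higher, with medians of 6.08 to 6.32 in XY and 6.00 to 6.14 in XX at 13.5 dpc. The median of 5 mesonephric epithelium markers was apart at 12.5 dpc, at 6.66 to 6.90 in XY and 6.98 to 7.18 in XX. It overlapped between the sexes at 11.5 and 13.5 dpc, and that of 8 macrophage markers overlapped at every stage. The part of these cells in the results was not tested.

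Of the genes that differed at 12.5 dpc by more than 1 log2 unit, 4 have a promoter entry in RefSeq (GRCm38.p6), and the 250 bases before the start are shown because these genes were high together in XY supporting cells. No entry was found for Lama4 and Col9a3. Each is written 5′ to 3′ on the strand of the gene, with capitals for GGGCGG (the GC box) and CCAAT on either strand. The first lies at chr6:91212514-91212763 on the plus strand, the second at chr9:108263959-108264208, the third at chr10:77166531-77166780 (each 1 of 2 listed starts of its gene), and the fourth at chr11:55420081-55420330, all on the minus strand.
Fbln2: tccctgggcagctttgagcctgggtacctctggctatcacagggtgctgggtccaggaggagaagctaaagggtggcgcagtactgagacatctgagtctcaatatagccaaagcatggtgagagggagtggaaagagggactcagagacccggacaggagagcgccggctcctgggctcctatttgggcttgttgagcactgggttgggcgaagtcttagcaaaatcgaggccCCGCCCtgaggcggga
Dag1: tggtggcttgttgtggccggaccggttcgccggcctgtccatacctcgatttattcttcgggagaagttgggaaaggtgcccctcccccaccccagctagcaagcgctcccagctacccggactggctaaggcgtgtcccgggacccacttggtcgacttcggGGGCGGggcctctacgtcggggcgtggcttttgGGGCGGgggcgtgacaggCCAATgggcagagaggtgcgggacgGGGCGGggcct
Col18a1: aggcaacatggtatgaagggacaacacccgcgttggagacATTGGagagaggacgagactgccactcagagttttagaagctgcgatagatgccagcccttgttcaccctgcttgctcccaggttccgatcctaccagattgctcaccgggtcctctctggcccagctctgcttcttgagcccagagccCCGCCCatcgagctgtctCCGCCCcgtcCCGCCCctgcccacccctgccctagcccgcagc
Sparc: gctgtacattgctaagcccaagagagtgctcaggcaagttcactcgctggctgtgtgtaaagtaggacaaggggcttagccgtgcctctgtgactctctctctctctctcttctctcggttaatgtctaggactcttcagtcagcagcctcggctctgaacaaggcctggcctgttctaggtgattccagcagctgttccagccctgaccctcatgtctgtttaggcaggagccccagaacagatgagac
In these windows Fbln2 held 1 GGGCGG, Dag1 held 3 and 1 CCAAT, Col18a1 held 3 and 1 CCAAT, and Sparc held neither. The same 250 bases were searched in 30 windows of 24 members and in all 32851 windows of the table. GGGCGG was present in 19 of the 30 and in 32.7% of all windows, and CCAAT in 10 of the 30 and in 33.8%. The SOX core AACAAT was present in 2 of the 30 and 9.42% of all, its form ACAAAG in 5 and 16.5%, the nuclear receptor site AAGGTCA in 0 and 4.08%, the GATA site AGATAA in 0 and 9.99%, and TATAAA in 1 and 12.4%. None of these last 5 stood in the 4 windows shown. The share of G and C was 54.0% to 67.6% in the 4 windows shown and 35.2% to 83.6% in the 30. Its median over all windows was 52.4%, and its part in these counts was not tested. The 2 windows of Dag1 overlap, so the same GC boxes count in both. A match is a run of letters and says nothing of binding.

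Over time supporting cells of both sexes gained Lama1 and Nid1. From 11.5 to 13.5 dpc 3 members rose and 1 fell in XX cells, against 4.1% of all genes (2.37% higher and 1.73% lower), with a median of 0.11 over the list and -0.03 over all genes. In XY cells 6 rose and none fell, against 8.87% of all genes (6.6% higher and 2.27% lower), with medians of 0.23 and 0.02. The XY step also changed the reporter line from Sry-EGFP to Sox9, and the XX step did not. With row sets aligned 13 and 12 members passed, against 10.5% and 21.7% of all genes.

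Lama1 rose from 7.12, 7.06 and 6.99 to 8.10, 8.38 and 8.04 in XX cells (1.12, SE 0.21, adjusted p = 0.000221) and from 7.30, 7.38 and 7.54 to 8.76, 8.48 and 8.67 in XY cells (1.23, SE 0.21, adjusted p = 2.55e-05). The stages did not overlap in either sex, and at 12.5 dpc XX cells already stood at 7.69 to 8.46. Nid1 rose from 7.18, 7.36 and 7.22 to 8.04, 8.25 and 8.14 in XX (0.89, SE 0.24, adjusted p = 0.0192) and from 7.73, 7.31 and 7.08 to 8.77, 8.70 and 8.89 in XY (1.41, SE 0.24, adjusted p = 2.76e-05). In XX the call was lost without 11.5 dpc replicate 1 (0.86) or 3 (0.88) or 13.5 dpc replicate 2 (0.84) or 3 (0.90). Sparc rose narrowly in XX cells (0.71, SE 0.22, adjusted p = 0.0498), a call lost without any single one of the 6 arrays compared (0.66 to 0.75), although the stages did not overlap. Dag1 fell in XX cells from 9.98, 10.01 and 9.81 to 9.30, 8.82 and 8.95 (-0.91, SE 0.22, adjusted p = 0.00455), with no overlap, and the call was lost without 13.5 dpc replicate 2 (-0.80). Without 11.5 dpc replicate 1 or 3 the XX count was 2, and without 13.5 dpc replicate 2 it was 1.

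In XY cells Lama3 rose from 6.06, 6.06 and 6.21 to 7.10, 6.94 and 7.38 (1.03, SE 0.19, adjusted p = 7.53e-05), and Col9a3 rose by 1.02 (SE 0.20, adjusted p = 0.000307). Both stood at the higher level by 12.5 dpc. Agrn, which clusters receptors at synapses and binds dystroglycan, rose from 7.69, 7.81 and 7.65 to 8.46, 8.44 and 8.40 (0.72, SE 0.20, adjusted p = 0.0126), a call lost without 11.5 dpc replicate 3 (0.68). Itga6 rose from 10.64, 10.60 and 10.26 to 11.41, 11.19 and 11.10 (0.74, SE 0.23, adjusted p = 0.0291), lost without 11.5 dpc replicate 3 (0.61) or 13.5 dpc replicate 1 (0.65), 2 (0.76) or 3 (0.80). In each of these genes the 13.5 dpc arrays were all above the 11.5 dpc arrays. Among the markers, 3 of 4 Leydig genes and 1 of 5 erythroid genes rose in XY cells over the same days, and their part was not tested. Inside a single line, from 12.5 to 13.5 dpc, no member passed in XX cells (0 by limma, 0 at an unadjusted p under 0.05, 1 with row sets aligned), against 0.542% of all genes (0.155% higher and 0.386% lower, and 1.31% with row sets aligned), with a median of -0.13 over all genes.

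Germ cells of the sexes did not differ in any member at 11.5 dpc (0 by limma and 0 at an unadjusted p under 0.05), where 0.0251% of all genes did. At 12.5 dpc 2 members were lower in XY germ cells, against 1.8% of all genes (0.426% higher and 1.37% lower), with a median of -0.08 over the list and 0.02 over all genes. At 13.5 dpc 2 were higher and 2 lower, against 9.21% of all genes (5.28% higher and 3.93% lower), with medians of -0.05 and 0.07. With row sets aligned 2 were higher and 5 lower at 13.5 dpc, against 17.2% of all genes, and 2 passed at 12.5 dpc, against 1.94%. The 2 aligned calls at 12.5 dpc were not the same pair of genes: Sparc passed (-0.45, against -0.06 before alignment) and Lama1 no longer did. The germ cell arrays share 1 reporter and strain.

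Lama1 separated the sexes through the XX cells. It read 6.66, 6.44 and 6.74 at 11.5 dpc, 7.42 and 7.98 at 12.5 dpc and 8.03, 8.04 and 7.72 at 13.5 dpc in XX germ cells. In XY germ cells it read 6.92, 6.41 and 7.33 at 11.5 dpc, then 6.77, 6.51 and 7.01 at 12.5 dpc, then 6.38, 6.95 and 7.03 at 13.5 dpc. XX and XY overlapped at 11.5 dpc and no longer at 12.5 and 13.5 dpc. The differences were -0.94 (SE 0.24, adjusted p = 0.0211) at 12.5 dpc, where only 2 XX arrays stood, and -1.14 (SE 0.21, adjusted p = 0.000112) at 13.5 dpc. The earlier call was lost without XX replicate 2 (-0.66), XY replicate 1 (-0.94) or XY replicate 2 (-0.81) and with row sets aligned (-0.38). Fbln1 was lower in XY at 12.5 dpc (-1.06, SE 0.23, adjusted p = 0.00593), with 7.83 and 8.49 in XX and 7.13, 6.80 and 7.35 in XY, and at 13.5 dpc (-0.73, SE 0.21, adjusted p = 0.0142), with 8.11, 8.37 and 8.09 and 7.32, 7.40 and 7.64. The sexes were apart at both stages, and the calls were lost without XX replicate 2 (-0.74) or XY replicate 2 (-0.92) at 12.5 dpc and without XX replicate 2 (-0.64) or XY replicate 2 (-0.71) at 13.5 dpc. The 12.5 dpc difference of Fbln1 was -0.61 with row sets aligned. Without XX replicate 2 or XY replicate 2 no member passed at 12.5 dpc.

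Fn1 and Lamb1 were higher in XY germ cells at 13.5 dpc. Fn1 read 9.93, 9.70 and 9.48 in XX and 10.53, 11.16 and 11.02 in XY (1.20, SE 0.22, adjusted p = 6.06e-05), and Lamb1, the beta chain of most embryonic laminins, read 8.90, 8.33 and 8.36 and 9.41, 9.88 and 9.72 (1.14, SE 0.19, adjusted p = 2.84e-05). Both sexes of Fn1 had been at 10.38 to 11.02 at the earlier stages, so the XX cells of 13.5 dpc were the ones below. In Lamb1 2 of the 3 XX arrays were below and all 3 XY arrays above the 11.5 dpc range of 8.87 to 9.10. The other 31 members did not pass, among them Nid2 with -0.01, Itga6 with 0.28 and Itgb1 with -0.16. Of these 31, Lamb2 (-0.70), Hspg2 (-0.31) and Sparc (-0.72) passed as lower in XY with row sets aligned.

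**Figure D5:**
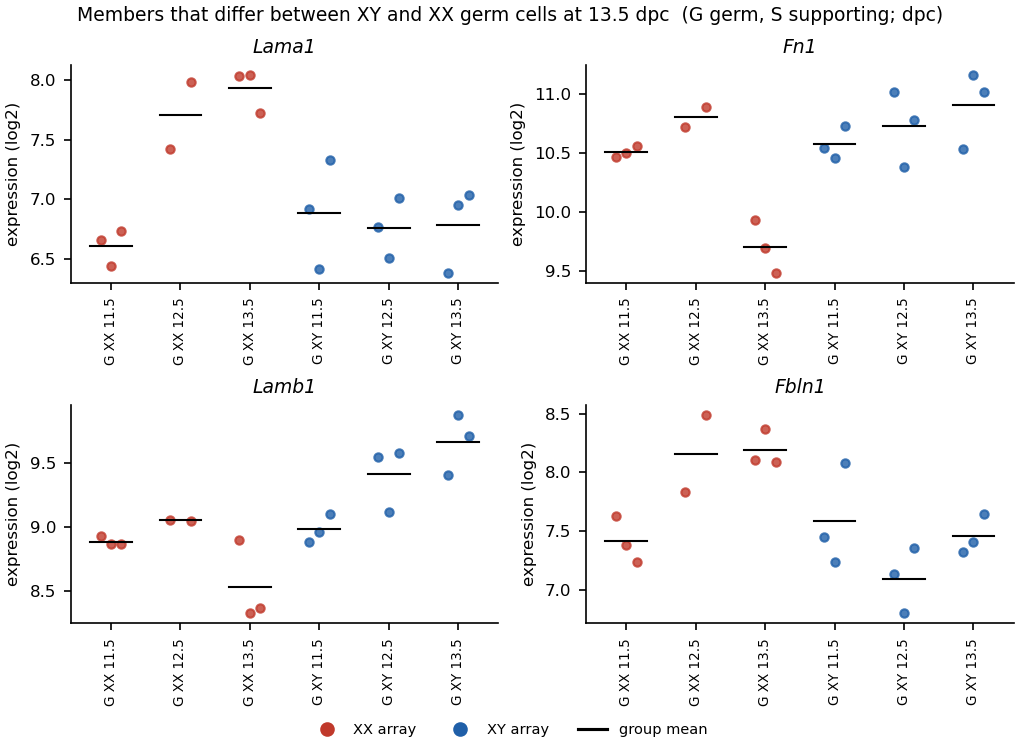
Log2 expression of Lama1, Fn1, Lamb1 and Fbln1 on each germ cell array (points, red for XX and blue for XY) with the group mean (line), by sex and stage in dpc. At 12.5 and 13.5 dpc XX arrays of Lama1 stand at 7.42 or more and XY arrays at 7.03 or less, and XX arrays of Fn1 drop to between 9.48 and 9.93 at 13.5 dpc.

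From 11.5 to 13.5 dpc 3 members rose and 2 fell in XX germ cells, against 15.3% of all genes (5.83% higher and 9.45% lower), with a median of -0.11 over the list and -0.14 over all genes. In XY germ cells 2 rose and 2 fell, against 7.09% of all genes (2.9% higher and 4.19% lower), with medians of -0.01 and -0.03. In XX cells 6 rose and 2 fell with arrays centred, 7 and 2 with quantile normalisation, and 8 passed without 13.5 dpc replicate 1. In XY cells 2 passed without 11.5 dpc replicate 1 and 2 without 13.5 dpc replicate 3.

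Itga6 rose in both sexes, from 6.96, 7.27 and 7.21 to 8.60, 8.51 and 7.90 in XX (1.19, SE 0.23, adjusted p = 0.000103) and from 6.42, 6.69 and 7.41 to 8.50, 8.78 and 8.58 in XY (1.78, SE 0.23, adjusted p = 6.8e-08). Sparc fell in both, from 11.62, 11.36 and 12.07 to 10.99, 10.59 and 10.59 in XX (-0.96, SE 0.22, adjusted p = 0.000976) and from 11.63, 11.58 and 11.85 to 9.65, 10.68 and 10.56 in XY (-1.39, SE 0.22, adjusted p = 6.23e-06). Neither gene overlapped between the stages. In XX cells Lama1 rose by 1.32 (SE 0.21, adjusted p = 6.26e-06) and Fbln1 by 0.77 (SE 0.21, adjusted p = 0.00574), while Fn1 fell (-0.81, SE 0.22, adjusted p = 0.00555), a call lost without 13.5 dpc replicate 3 (-0.70). The step was 0.36 in Fbln1 and -0.47 in Fn1 with row sets aligned. In XY cells Lamb1 rose (0.69, SE 0.19, adjusted p = 0.0184), lost without 11.5 dpc replicate 1 (0.64) or 13.5 dpc replicate 2 (0.58) or 3 (0.66). Nid2 fell in XY cells (-0.66, SE 0.20, adjusted p = 0.0293), from 10.37, 9.79 and 10.54 to 9.40, 9.72 and 9.59, which stayed far above supporting cells. Its call was lost without 11.5 dpc replicate 1 (-0.59) or 3 (-0.51) or 13.5 dpc replicate 1 (-0.57) or 3 (-0.67). In XX germ cells Nid2 was lower at 13.5 dpc too, by -0.42 without passing and by -0.81 with row sets aligned, which passed. Lamb2 in XX (0.58) and Agrn in XY cells (0.37) also passed as higher with row sets aligned only. Erythroid markers fell too, 2 of 5 in XX and 1 of 5 in XY germ cells, and 1 of 8 stromal markers in each, and their part was not tested.

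The sex difference in germ cells changed from 11.5 to 13.5 dpc in 3 members, against 3.24% of all genes. The change was -1.42 (SE 0.30, adjusted p = 0.0023) for Lama1, 1.04 (SE 0.28, adjusted p = 0.0199) for Lamb1 and 1.14 (SE 0.30, adjusted p = 0.0229) for Fn1. The call of Lamb1 was lost without XY 11.5 dpc replicate 1 (0.99), XX 13.5 dpc replicate 2 (0.94) or 3 (0.96) or XY 13.5 dpc replicate 2 (0.94). That of Fn1 was lost without XX 11.5 dpc replicate 3, XY 11.5 dpc replicate 1, XX 13.5 dpc replicate 3, XY 13.5 dpc replicate 2 or XY 13.5 dpc replicate 3 (1.01 to 1.12). Without XY 11.5 dpc replicate 1, XX 13.5 dpc replicate 3 or XY 13.5 dpc replicate 2 the count was 1, and with row sets aligned 2 were higher and 3 lower, against 7.64% of all genes. The change of Lama1 was -0.92 with row sets aligned.

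The XY minus XX difference at 13.5 dpc itself differed between supporting and germ cells in 8 members, against 11.2% of all genes. It was higher in supporting cells for Lama4 (2.79, SE 0.30, adjusted p = 2.58e-10), Fbln2 (2.60, SE 0.28, adjusted p = 3.66e-10), Col18a1 (1.93, SE 0.29, adjusted p = 1.21e-06), Lama1 (1.61, SE 0.30, adjusted p = 7.48e-05), Col9a3 (1.34, SE 0.29, adjusted p = 0.000651), Sparc (1.15, SE 0.31, adjusted p = 0.00709) and Fbln1 (0.99, SE 0.29, adjusted p = 0.0166), and lower for Lamb1 (-0.94, SE 0.28, adjusted p = 0.0161). For Lama1 the 2 cell types pointed in opposite directions, 0.47 in supporting cells, which did not pass, and -1.14 in germ cells, which did. With row sets aligned the supporting cell value of Lama1 was 0.50 and passed. The call of Sparc was lost without germ XY replicate 1 (0.83) and that of Fbln1 without germ XX replicate 2 (0.90). That of Lamb1 was lost without germ XX replicate 2 (-0.83) or 3 (-0.85), germ XY replicate 2 (-0.83), supporting XX replicate 1 (-0.80) or supporting XY replicate 2 (-0.86).

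The other genes of the pathway were 98 genes on the array that make, modify, remodel or bind matrix. Between germ and supporting cells 63 of them differed, 11 higher and 52 lower in germ cells, against 47.2% of all genes (29.1% higher and 18.1% lower). The lowest were Gpc4 (-3.19, SE 0.08), a cell surface heparan sulfate proteoglycan, the matrix protease gene Adamts9 (-2.75, SE 0.11) and Pxdn (-2.72, SE 0.09), which crosslinks type IV collagen. The highest were the integrin chain Itgb3 (1.19, SE 0.08), Npnt (1.02, SE 0.10), a basement membrane ligand of integrins, and Frem2 (0.89, SE 0.09). Of the 15 remodelling genes 14 were lower and none higher in germ cells, where 18.1% of all genes were lower and 29.1% higher. Adamts9 has 6 probe sets, and its value is that of the probe set with the highest mean.

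In supporting cells 12 of the 98 were higher and 4 lower in XY at 11.5 dpc, against 3.32% of all genes. Plat (2.67, SE 0.22), which activates plasminogen, the proteoglycan gene Vcan (2.53, SE 0.31) and Plod2 (2.25, SE 0.22), which hydroxylates collagen lysines, led the higher ones, and Col12a1 (-1.52, SE 0.24), Hmcn1 (-1.28, SE 0.23) and Adamts1 (-1.22, SE 0.23) the lower ones. At 12.5 dpc 32 were higher and 13 lower, against 13.4%. The higher ones were led by Col14a1 (3.90, SE 0.23), a fibril-associated collagen, Plod2 (3.49, SE 0.22) and Vcan (3.34, SE 0.31), and the lower ones by Col12a1 (-4.70, SE 0.24), another fibril-associated collagen, the hemicentin gene Hmcn1 (-4.60, SE 0.23) and Thbs2 (-2.19, SE 0.19). Of 20 genes of chain modification and assembly 9 were higher and none lower at this stage, where 8.48% of all genes were higher and 4.89% lower. At 13.5 dpc 23 were higher and 15 lower, against 12.2%, with Col14a1 (3.94, SE 0.23), Plod2 (3.07, SE 0.22) and Tinagl1 (2.66, SE 0.19) at one end and Col12a1 (-4.13, SE 0.24), Hmcn1 (-3.90, SE 0.23) and Thbs2 (-3.63, SE 0.19) at the other. The 2 fibril-associated collagens thus differed in opposite directions at all 3 stages, Col14a1 with 0.80 (SE 0.23) at 11.5 dpc. Hmcn1 has 77 probe sets, and its values are those of the probe set with the highest mean. Its other probe sets were not compared.

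With stage, from 11.5 to 13.5 dpc, 14 of the 98 rose and 4 fell in XX supporting cells, led by Fbn2 (3.21, SE 0.20) and Thbs2 (3.04, SE 0.19), against 4.1% of all genes. In XY supporting cells 15 rose and 8 fell, led by Col14a1 (3.09, SE 0.23) and Tinagl1 (2.35, SE 0.19), against 8.87% of all genes. In germ cells 0 differed between the sexes at 11.5 dpc by limma (6 at an unadjusted p under 0.05), 1 was higher and 5 lower in XY at 12.5 dpc (1.8% of all genes differed), and 4 were higher and 7 lower at 13.5 dpc, a share of the list near the 9.21% of all genes. At 13.5 dpc the proteoglycan genes Sdc4 (1.70, SE 0.23) and Gpc4 (1.54, SE 0.20) were higher and Npnt (-1.61, SE 0.24) and the protease gene Htra1 (-1.33, SE 0.26) lower in XY germ cells.

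Some of these calls depended on which arrays shared the estimate of the spread. Putting the left-out array back ended 15 of the 83 member calls. In supporting cells these were Nid1 at 12.5 dpc (0.77), Lama3 (0.55), Fn1 (0.65) and Sparc (0.73) at 13.5 dpc, Nid1 (0.89) and Sparc (0.71) over time in XX cells, and Itga6 (0.74) and the later step of Col18a1 (-0.90) in XY cells. In germ cells they were Lamb1 (0.69) and Nid2 (-0.66) over time in XY cells and the changes of Lamb1 (1.04) and Fn1 (1.14). The others were Hspg2 between cell types (-0.13) and, at 13.5 dpc, Lamb1 (-0.94) and Sparc (1.15) between the sex differences of the cell types. Fitting only the arrays compared ended 6 calls, of which Lama3 (0.61) and Col4a2 (0.60) at 12.5 dpc and Fbln1 in germ cells at 13.5 dpc (-0.73) were not among those 15, and quantile normalisation also ended Nid1 at 12.5 dpc (0.64) and Itga6 over time in XY cells (0.62). The calls of Lama4, Fbln2 and Col18a1 between the sexes of supporting cells held under every alternative.

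Of the 35 members, 24 differed in at least 1 of the 17 comparisons and 11 in none. The share of all genes that differed in at least 1 comparison was not computed. Between cell types alone 47.2% of all genes differed. Without the matching share, the count of 24 is not read as particular to the list. The 11 were the laminin chains Lamb3 and Lamc3, the type IV chains Col4a3, Col4a4, Col4a5 and Col4a6, the proteoglycan gene Col15a1, and the interstitial collagens Col1a1, Col1a2, Col3a1 and Col5a1. Aligned row sets let 5 of these 11 pass in at least 1 comparison, Col4a3, Col4a5, Col4a6, Col3a1 and Col5a1. Over all 35 arrays the levels of the 11 were, for example, 5.83 to 6.69 for Col4a6 and 7.49 to 8.30 for Col1a1. Col4a5, which lies on the X chromosome beside Col4a6, had XY minus XX values of -0.26, -0.41 and -0.45 by stage in supporting cells, none of which passed, while the aligned value at 13.5 dpc (-0.31, adjusted p = 0.0477) did. Only 26 of the 35 members had a mean of at least 6.90, the median over genes.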

How the data were processed

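Expression values are log2 units that the authors deposited as a single table of 35557 probe sets on 36 arrays; RMA was used per the submitters' processing notes, and no version is given in the sources used. No column lacked a sample. Of the probe sets 21789 carry 1 gene symbol, 1621 several and 12147 none in the annotation table; symbols were checked through GRCm38.p6 gene IDs (21698 matched), and the probe set with the highest mean stood for each of 19938 genes. Rows fell into 107 sets, each on its own linear scale (slopes of 1.0099 to 1.059 between sets), with no stated origin. A limma model (3.58.1, R 4.3.3) of 12 group means was fitted to the deposited values of 35 arrays, with eBayes (23 residual degrees of freedom), no filter, Benjamini-Hochberg adjustment and a threshold of 0.05; the script was tested on simulated data. Named genes were all members that passed a comparison and at most 3 pathway genes in each direction. The members, gene lists and the left-out array were chosen with earlier results of these data known. Alternatives were a dim filter (mean of 6.90), quantile normalisation, centred arrays, aligned row sets, only the arrays compared, the left-out array put back, a replicate block and leaving out each array. Replicate numbers did not pair the arrays: over 187 pairs of the same number, deviations from the group mean correlated at -0.524 to 0.541 (median -0.006), against a median of 0.002 for other pairs.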

Additional observations from a re-analysis of the deposited data

Results flagged for a closer look

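The XY minus XX difference changed between stages in some genes, by a limma interaction test with adjusted p under 0.05. In supporting cells it changed from 11.5 to 13.5 dpc by 1.19 in Col9a3 and 1.44 in Dag1, while the reporter line of XY cells changed too. In germ cells it changed by -1.42 in Lama1, 1.04 in Lamb1 and 1.14 in Fn1.

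The same difference at 13.5 dpc was not alike in the 2 cell types, by the same kind of test. Supporting minus germ cells, it was 1.61 in Lama1, 2.79 in Lama4, -0.94 in Lamb1, 1.93 in Col18a1, 1.15 in Sparc, 0.99 in Fbln1, 2.6 in Fbln2 and 1.34 in Col9a3.

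The array labelled XX germ cells at 12.5 dpc replicate 3, which entered no comparison, exceeded the highest of the 17 other germ cell arrays by more than 1 log2 unit in 4 genes. Col3a1 was at 9.2 against 8.03, Itga6 at 10.82 against 8.78, Lama4 at 8.43 against 6.76 and Nid1 at 8.66 against 7.21. Its Fn1 at 9.79 lay within the germ cell range of 9.48 to 11.16, and its Nid2 at 8.61 lay between the highest supporting cell array at 7.35 and the lowest germ cell array at 9.27.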

How the results depend on the processing

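Of 83 member calls over the 17 comparisons, 56 held under every alternative that fitted the gene and 27 were lost under at least 1. The dim filter fitted only 26 of the 35 members. Aligned row sets lost 1 call and added 66 of unchanged sign, and Col4a6 between cell types passed with its sign turned. With row sets aligned, the number of members that passed moved by over 1.5 times for XY minus XX in supporting cells at 11.5 dpc (4 to 7) and 13.5 dpc (9 to 18) and in germ cells at 13.5 dpc (4 to 7), for 13.5 minus 11.5 dpc in supporting XX (4 to 13) and XY (6 to 12), for 13.5 minus 12.5 dpc in supporting XX (0 to 1) and XY (1 to 4), for the change of the sex difference in supporting cells from 11.5 dpc (2 to 8) and 12.5 dpc (0 to 1) and in germ cells (3 to 5), and for supporting minus germ cells at 13.5 dpc (8 to 18). Col4a6 between cell types turned from 0.04 to -0.078. With only the arrays compared, the counts were 9 and 10 for 13.5 minus 11.5 dpc in supporting XX and XY, 2 in germ XY, and 5 for the change in supporting cells. With the left-out array put back they were 2 in supporting XX, 0 for 13.5 minus 12.5 dpc in XY, 2 in germ XY and 1 for the change in germ cells. Quantile normalisation and centred arrays gave 0 each for 13.5 minus 12.5 dpc in XY, and 9 and 8 for 13.5 minus 11.5 dpc in germ XX. Leaving out single arrays gave 19 to 23 members between cell types; 4, 6 to 11 and 5 to 8 for XY minus XX in supporting cells by stage; 0 to 2 and 3 to 4 in germ cells at 12.5 and 13.5 dpc; 1 to 3 and 4 to 6 for 13.5 minus 11.5 dpc in supporting XX and XY; 0 to 4 for 13.5 minus 12.5 dpc in XY; 4 to 8 and 2 to 4 in germ XX and XY; 2 to 3 and 1 to 4 for the changes in supporting and germ cells; and 6 to 8 for supporting minus germ cells. The replicate block, with numbers that do not pair the arrays, gave 21 members between cell types and 8 for XY minus XX at 13.5 dpc, and moved no count by over 1.5 times. Lama3 at 13.5 dpc (0.55) and Sparc in XX cells (0.71) lost their calls under it. Except where the construction of an alternative shows it, the cause was not tested. The number of arrays limits the precision.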
